A study of Mus musculus with 6 samples.

Results

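Nfil3 and 9 genes of the circadian clock were read in RNA-seq libraries of mouse peritoneal macrophages, as 10 rows of a table of 54532 genes, picked by gene name (Nfil3, Bhlhe40, Bhlhe41, Per1, Per2, Cry1, Nr1d1, Nr1d2, Dbp and Arntl). The cells came from the peritoneum of wild-type male C57BL/6J mice aged 6 to 8 weeks, kept under a 12 h light and 12 h dark cycle, and were elicited with thioglycolate 5 days earlier. All 3 groups share this thioglycolate elicitation and an adherent culture. Control cells were untreated. Model cells were stimulated with 500 ng/mL of lipopolysaccharide (LPS) and, 5.5 h later, with 2 mM ATP for another 0.5 h, a sequence that activates the NLRP3 inflammasome. In the MUS group, 50 µM muscone, a macrocyclic ketone of musk, was added 0.5 h before ATP to an otherwise identical LPS and ATP stimulation. Each group had 2 libraries, and the sample labels place replicate 1 of every group in batch 1 and replicate 2 in batch 2. No source used here says that the replicates of a group came from separate animals, so p-values measure only the spread between these libraries, which may be technical. The time of day of the harvest is not given in the sources used here.

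The circadian clock is a transcriptional feedback loop. A dimer of BMAL1 (the product of Arntl) and CLOCK binds E-boxes and switches on its own repressors, the PER and CRY proteins, as well as the receptors REV-ERBα and REV-ERBβ (Nr1d1 and Nr1d2) and the repressors DEC1 and DEC2 (Bhlhe40 and Bhlhe41). REV-ERBs and the activating ROR receptors compete for ROR elements, which lie in Arntl and Nfil3. A further arm acts on D-boxes, where NFIL3 (also called E4BP4) represses and DBP, TEF and HLF activate. Macrophages hold a working clock, and several of these factors also act on cytokine genes.

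The 10 genes were chosen with results of these data in view. Nfil3 was listed by the study among the genes that changed in both comparisons of these same libraries, so its differences between groups are what selected it, and the other clock genes were chosen after earlier results of these data were known. The levels of all 10 are therefore given as a description, without a p-value. The libraries held between 15526321 and 17135442 fragments on genes. In Model replicate 1, 24906 genes had at least 1 fragment, against 17406 to 19200 in the other libraries, and the cause was not tested. Fragment numbers were recovered from the deposited FPKM (fragments per kilobase of gene, scaled to the size of the library), in which 100% of values were whole fragments within 0.1 of a fragment. The macrophage markers were all expressed (6 of 6 averaged 1 FPKM or more), and their summed level was 11820 to 13330 FPKM in Control, 8279 to 12370 in Model and 10100 to 11960 in MUS. No marker of T, B, NK, mast, dendritic or mesothelial cells reached a mean of 1 FPKM, namely 0 of 5, 0 of 4, 0 of 4, 0 of 5, 0 of 3 and 0 of 4. The 3 dendritic cell markers summed to 0.252 to 0.433 FPKM in Control, 1.11 to 1.78 in Model and 1.07 to 1.397 in MUS. Of 5 neutrophil markers S100a8 reached that mean, which a macrophage can also express, and the list summed to 13.6 to 30.6 FPKM in Control, 56.5 to 110 in Model and 50.3 to 64.0 in MUS. Mpo did not reach that mean, and S100a9, Ly6g and Elane were listed at 0 in every library. Whether these zeros reflect absent transcripts was not tested. Of 4 eosinophil markers 1 reached the mean, Prg2 and Epx were listed at 0, and the list summed to 2.78 to 4.17 FPKM in Control, 1.42 to 1.95 in Model and 1.60 to 1.63 in MUS. In bulk samples fewer cells of a type and less RNA per cell cannot be told apart, and the part of other cells in the results below was not tested.

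Promoter windows from RefSeq (build GRCm38.p6, 250 bases before to 50 bases after a start) were at hand for 8 of the 10 genes, in 10 windows. Bhlhe40 and Per2 had no window and were not searched. The windows were searched on both strands for the E-box CACGTG, the D-box TTATGTAA or TTACGTAA, the core of the ROR element, TAGGTCA or TGGGTCA, and the cyclic AMP response element TGACGTCA. None of these motifs contains another. The E-box was found in the windows of Bhlhe41, Cry1 and Per1, against 7.15% of all 32851 windows, and the ROR core in those of Arntl and Nfil3, against 6.45%. The D-box (1.06% of all windows) and the cyclic AMP response element (1.79%) were in none of the 10 windows. The stretches are shown because they place the letters through which clock proteins are known to act beside the genes measured here, with the motif in capitals and each sequence 5′ to 3′ on the gene's own strand.
Nfil3: gcgctcggaacTGACCTActaacacacat
Arntl: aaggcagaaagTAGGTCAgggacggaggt
Per1: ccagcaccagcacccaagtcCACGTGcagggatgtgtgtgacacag
Cry1: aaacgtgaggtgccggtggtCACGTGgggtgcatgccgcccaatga
Bhlhe41: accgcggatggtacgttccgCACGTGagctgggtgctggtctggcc

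The Nfil3 stretch (GRCm38.p6, chr13:52981034-52981062, minus strand) holds the ROR core on the opposite strand, where it reads TAGGTCA, starting 12 bases before the RefSeq start. In the GENCODE M21 annotation it lies in an exon of Nfil3. The Arntl stretch (chr7:113207530-113207558, plus strand) begins its ROR core 30 bases after the RefSeq start and is exonic as well. The Per1 E-box (chr11:69098763-69098808, plus strand) starts 166 bases before a RefSeq start that lies inside the gene, and the stretch is intronic in GENCODE M21. The Cry1 E-box (chr10:85185089-85185134, minus strand) starts 60 bases before the RefSeq start, outside the gene. The Bhlhe41 E-box (chr6:145865548-145865593, minus strand) starts 153 bases before the RefSeq start, and 11 bases of the stretch overlap an exon in GENCODE M21. A match describes these letters and is no measure of binding.

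By group mean, Nfil3 was the member with the highest level in Model, where its libraries overlapped those of Bhlhe40, and in MUS, where no other member overlapped it. The gene (ENSMUSG00000056749, chromosome 13, 52967209 to 52981073, minus strand, GRCm38) was at 7.94 and 3.75 FPKM in Control, at 34.1 and 25.8 FPKM in Model and at 80.3 and 65.1 FPKM in MUS. No 2 groups overlapped, which by itself fixes the order Control, Model, MUS within each batch. The fragments behind these levels numbered 368 and 174 for Control, 975 and 809 for Model, and 2460 and 2143 for MUS. The mean of 29.9 ± 5.89 FPKM (SD, n = 2) in Model was 5.12 times the mean of 5.85 ± 2.96 (SD, n = 2) in Control. The mean of 72.7 ± 10.8 FPKM (SD, n = 2) in MUS was 2.43 times that of Model and 12.4 times that of Control.

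On the log2(FPKM + 1) scale, which understates changes of low genes, Nfil3 differed by 2.23 between Model and Control (standard error 0.36 from limma, a linear model fitted across all genes). The difference was 1.97 within batch 1 and 2.49 within batch 2. Between MUS and Model it differed by 1.26 (standard error 0.36), with 1.21 within batch 1 and 1.30 within batch 2. Both comparisons use the same Model libraries, so these values are not independent of each other. Across 13 alternative settings the Model vs. Control difference lay between 1.75 and 2.69, and the MUS vs. Model difference between 1.06 and 1.45.

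**Figure D1:**
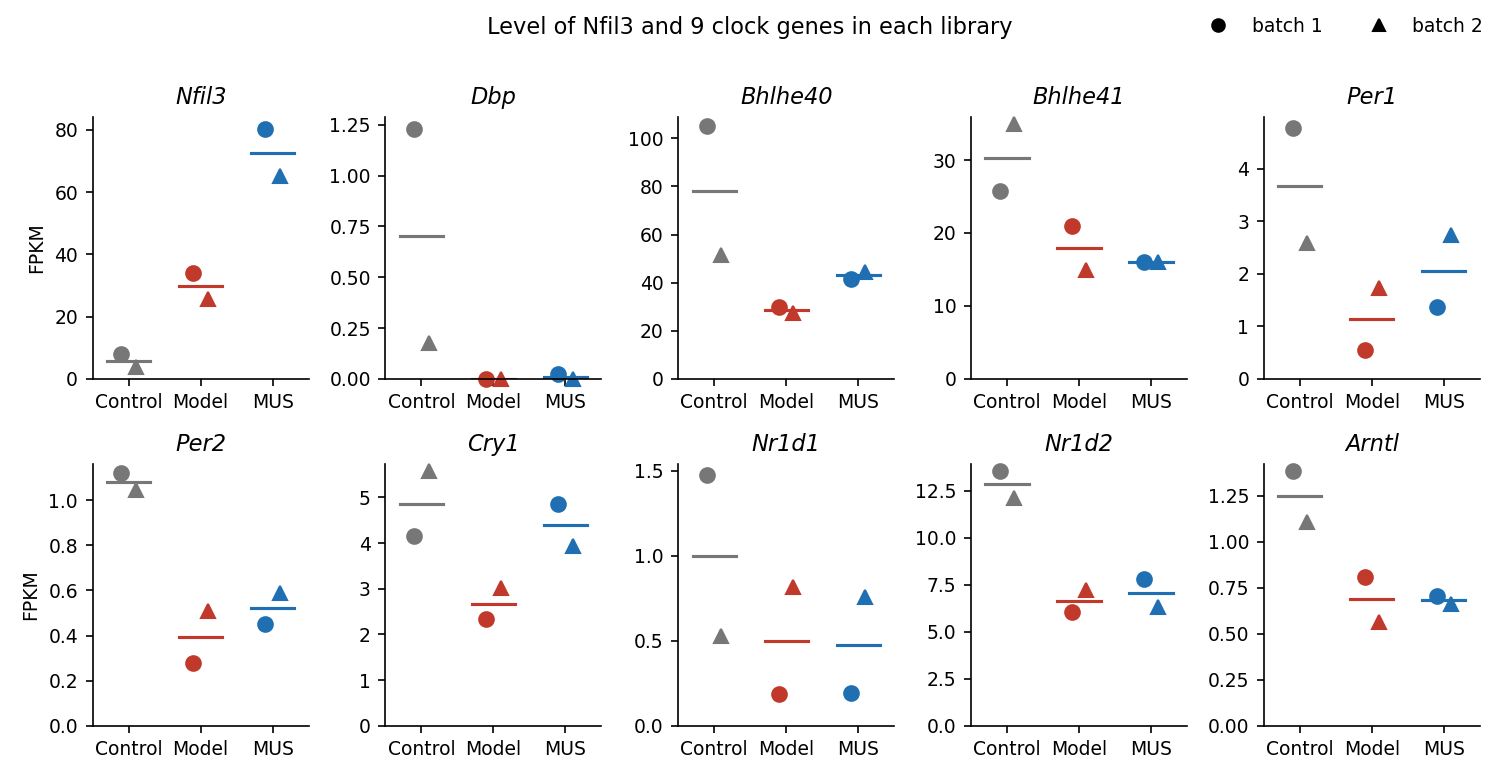
Level of Nfil3 and the other 9 clock genes in each of the 6 libraries, in FPKM on linear axes that start at 0. Circles are batch 1, triangles batch 2 and bars the mean of the 2 libraries; Nfil3 stands at 7.94 and 3.75 in Control, 34.1 and 25.8 in the Model and 80.3 and 65.1 in the MUS libraries, whereas the Control means of the other genes lie above their Model means.

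The D-box activator Dbp was the least abundant member. DBP is a PAR bZIP factor whose messenger is one of the strongest cycling outputs of the clock in many tissues. Dbp (ENSMUSG00000059824, chromosome 7, 45705088 to 45710203, plus strand) was at 1.23 and 0.175 FPKM in Control, or 84 and 12 fragments. It was listed at 0 in both Model libraries, and 1 fragment (0.0221 FPKM) and 0 fragments were found in MUS. The Control libraries differed from each other 7.004-fold, the widest replicate ratio among the 10 genes in Control. A count of 0 allows up to a floor of 3 fragments per library. Against that floor, Dbp in Model was at least 10.3-fold below the measured Control mean. The bound was 17.3 within batch 1 and 2.71 within batch 2. It covers counting error in Model only and takes the Control levels as measured. With counting error in Control included, the bound would be lower. In batch 2 the 95% exact Poisson interval began at 0.09055 FPKM in Control and ended at 0.07955 FPKM in Model. Between MUS and Model no fold can be given, since both lie under the floor. Of the exon bases of Dbp, 18.0% also lie in exons of Sphk2 on the opposite strand, which was at 14.0 and 11.6 FPKM in Control and 11.9 and 10.4 in Model. The library protocol does not mark strand, so fragments of the shared bases cannot be assigned between these genes.

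Of the other PAR bZIP factors, Tef was a differentially expressed gene (DEG, which here needs a limma p of 0.05 or less after Benjamini-Hochberg adjustment, and a log2 fold change beyond 1 in either direction) in Model vs. Control. Tef was at 5.15 and 3.79 FPKM in Control and fell to 1.53 and 1.21 in Model (log2 fold change -1.20, standard error 0.23, adjusted p = 0.0157). In MUS it was at 0.606 and 0.696 FPKM, below both Model libraries, but the difference did not pass the test (log2 fold change -0.52, adjusted p = 0.614). Hlf was at most 0.0212 FPKM in any library. The call for Tef in Model vs. Control was lost without Control replicate 1 (adjusted p = 0.0732) and without the filter on FPKM (adjusted p = 0.0862).

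Set side by side per length, Nfil3 and the summed activators Dbp, Tef and Hlf stood at similar levels in Control and apart in the other groups. The ratio of Nfil3 to that sum came to 1.24 and 0.944 for Control, 22.0 and 21.2 for Model, and 128 and 93.5 for MUS. The ratio includes Nfil3, which was chosen for its change, and is given without a test. It was higher in both Model libraries than in both Control libraries, and higher in both MUS libraries than in both Model libraries.

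**Figure D2:**
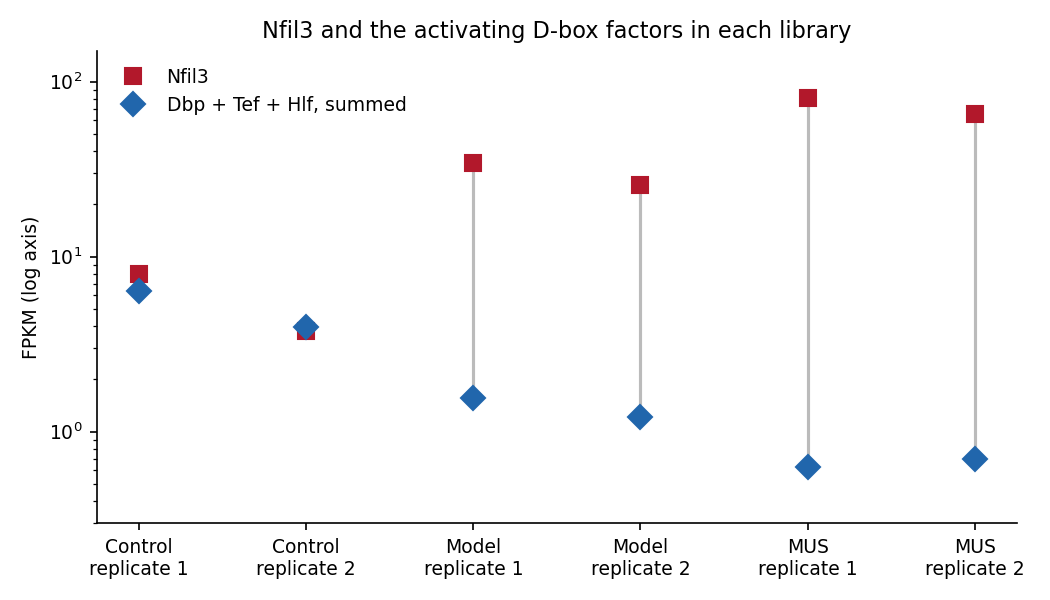
Level of Nfil3 (red squares) and the summed level of the D-box activators Dbp, Tef and Hlf (blue diamonds) in each library, in FPKM on a log axis. The gap between the symbols, drawn as a grey line, corresponds to a ratio of 1.24 and 0.944 for Control, 22.0 and 21.2 in the Model and 128 and 93.5 in the MUS libraries.

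The E-box repressor Bhlhe40 was the most abundant member in Control. DEC1, its product, represses at E-boxes and is known in macrophages and T cells as a repressor of Il10. Bhlhe40 (ENSMUSG00000030103, chromosome 6, 108660629 to 108666925, plus strand) was at 105 and 51.5 FPKM in Control, 29.8 and 27.4 in the Model and 41.5 and 44.6 in the MUS libraries. Both Model libraries lay below both Control libraries, and both MUS libraries lay between the other groups. The log2 difference was -1.33 (standard error 0.37) in Model vs. Control, with -1.78 within batch 1 and -0.89 within batch 2. In MUS vs. Model it was 0.57 (standard error 0.37), with 0.46 and 0.68 within the batches. Control replicate 1 held 2.04 times the FPKM of Control replicate 2, and without Control replicate 1 the difference to Model was -0.83. Bhlhe40 was not a DEG in Model vs. Control as deposited. It was one in 6 of the 13 alternatives, namely the 3 other scalings, the batch as a block, limma-voom and leaving out Control replicate 2. These calls describe a gene chosen with the differences known and support nothing.

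Its paralog Bhlhe41, which encodes DEC2, was at 25.8 and 34.9 FPKM in Control, 20.95 and 14.87 in Model, and at 16.0 and 16.0 in MUS (chromosome 6, 145858243 to 145865558, minus strand). The Control libraries lay above the Model libraries, which MUS overlapped. The log2 difference was -0.73 (standard error 0.29) in Model vs. Control, made up of -0.29 within batch 1 and -1.18 within batch 2, and -0.13 in MUS vs. Model, where the batches differed in sign (-0.37 and 0.10). The ratio of Bhlhe40 to Bhlhe41 was 4.07 and 1.48 for the Control libraries, 1.42 and 1.85 for Model, and 2.59 and 2.79 for MUS. Of the exon bases of Bhlhe41, 19.1% overlap an unclassified transcript on the opposite strand, Gm43909, whose own level was at most 0.624 FPKM.

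The PER and CRY proteins form the complex that inhibits CLOCK and BMAL1. Per1 (chromosome 11, 69095217 to 69109960, plus strand) was at 4.78 and 2.58 FPKM in Control, 0.541 and 1.73 in the Model and 1.36 and 2.73 in the MUS libraries. The Control libraries lay above both Model libraries, and MUS overlapped both groups. The log2 difference was -1.15 (standard error 0.39) in Model vs. Control, with -1.91 within batch 1 and -0.39 within batch 2, and 0.53 in MUS vs. Model (0.62 and 0.45). With 1 library left out the MUS vs. Model difference was 0.12 without Model replicate 1, 0.20 without MUS replicate 2, 0.86 without MUS replicate 1 and 0.95 without Model replicate 2. In Model and in MUS replicate 2 held more Per1 than replicate 1 (3.20-fold and 2.00-fold), and in Control replicate 1 held 1.85 times as much as replicate 2.

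Per2 (chromosome 1, 91415982 to 91459324, minus strand) was at 1.12 and 1.04 FPKM in Control, 0.278 and 0.507 in Model, and at 0.452 and 0.589 in MUS. The counts of 150 and 140 fragments in Control stood against 23 and 46 in the Model and 40 and 56 in the MUS libraries. Control did not overlap the other groups, and Model and MUS overlapped. The log2 difference was -0.59 in Model vs. Control and 0.13 in MUS vs. Model. Per1 exceeded Per2 in every library, by 1.94-fold in Model replicate 1 to 4.64-fold in MUS replicate 2.

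Cry1 (chromosome 10, 85131700 to 85185064, minus strand) was at 4.15 and 5.57 FPKM in Control, 2.33 and 3.01 in Model, and at 4.85 and 3.94 in MUS. Both Model libraries were lower than all 4 others, and MUS overlapped Control. The log2 difference of -0.67 (standard error 0.23) in Model vs. Control was similar within the batches (-0.63 and -0.71). In MUS vs. Model it was 0.56 (standard error 0.23), with 0.81 within batch 1 and 0.30 within batch 2. Cry2, the paralog outside the chosen genes, was at 0.948 and 0.809 FPKM in Control, 0.874 and 1.07 in the Model and 0.680 and 0.974 in the MUS libraries, and the 3 groups overlapped.

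The REV-ERB receptors repress at ROR elements. Nr1d2 was the more abundant of the pair in every library, by 8.32-fold to 40.3-fold. It was at 13.6 and 12.1 FPKM in Control, 6.04 and 7.20 in Model, and at 7.80 and 6.33 in MUS (chromosome 14, 18204054 to 18239127, minus strand). The Control libraries lay above all others, and Model and MUS overlapped. Its log2 difference was -0.86 (standard error 0.23) in Model vs. Control, with -1.05 and -0.68 within the batches, and 0.08 in MUS vs. Model (0.32 and -0.16).

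Nr1d1 (chromosome 11, 98767932 to 98775333, minus strand) followed the replicate number more than the group in the stimulated cells. It was at 1.48 and 0.526 FPKM in Control, 0.184 and 0.818 in the Model and 0.194 and 0.760 in the MUS libraries. Replicate 2 exceeded replicate 1 by 4.44-fold in Model and 3.93-fold in MUS, while replicate 1 exceeded replicate 2 by 2.81-fold in Control. The log2 difference in Model vs. Control was -1.07 within batch 1 and 0.25 within batch 2, so no direction holds in both. The counts were low in replicate 1, with 8 fragments in Model (95% exact Poisson interval of the level 0.0795 to 0.363 FPKM) and 9 in MUS (0.0885 to 0.367 FPKM). In replicate 2 the interval was 0.582 to 1.12 FPKM in Model, above that of replicate 1, so the gap between the replicates exceeds counting error. Nr1d1 shares 8.55% of its exon bases with Thra on the opposite strand, which was at 0.292 and 0.797 FPKM in Model.

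Arntl, which encodes the activator BMAL1, was at 1.38 and 1.11 FPKM in Control, 0.810 and 0.566 in Model, and at 0.704 and 0.663 in MUS (chromosome 7, 113207465 to 113314126, plus strand). The Control libraries lay above the others, and the MUS libraries lay between the Model libraries. The log2 difference was -0.41 in Model vs. Control, with -0.40 and -0.43 within the batches, and -0.00 in MUS vs. Model. Its partner Clock, which was not among the chosen genes, was at 3.41 and 5.75 FPKM in Control, 2.48 and 4.26 in the Model and 4.69 and 4.16 in the MUS libraries. Clock passed the test in neither comparison, with log2 fold changes of -0.35 (limma adjusted p = 0.439) and 0.34 (adjusted p = 0.819). The other partner of BMAL1, Npas2, was at 1.19 and 0.392 FPKM in Control and between 0.0269 and 0.429 in Model and MUS.

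**Figure D3:**
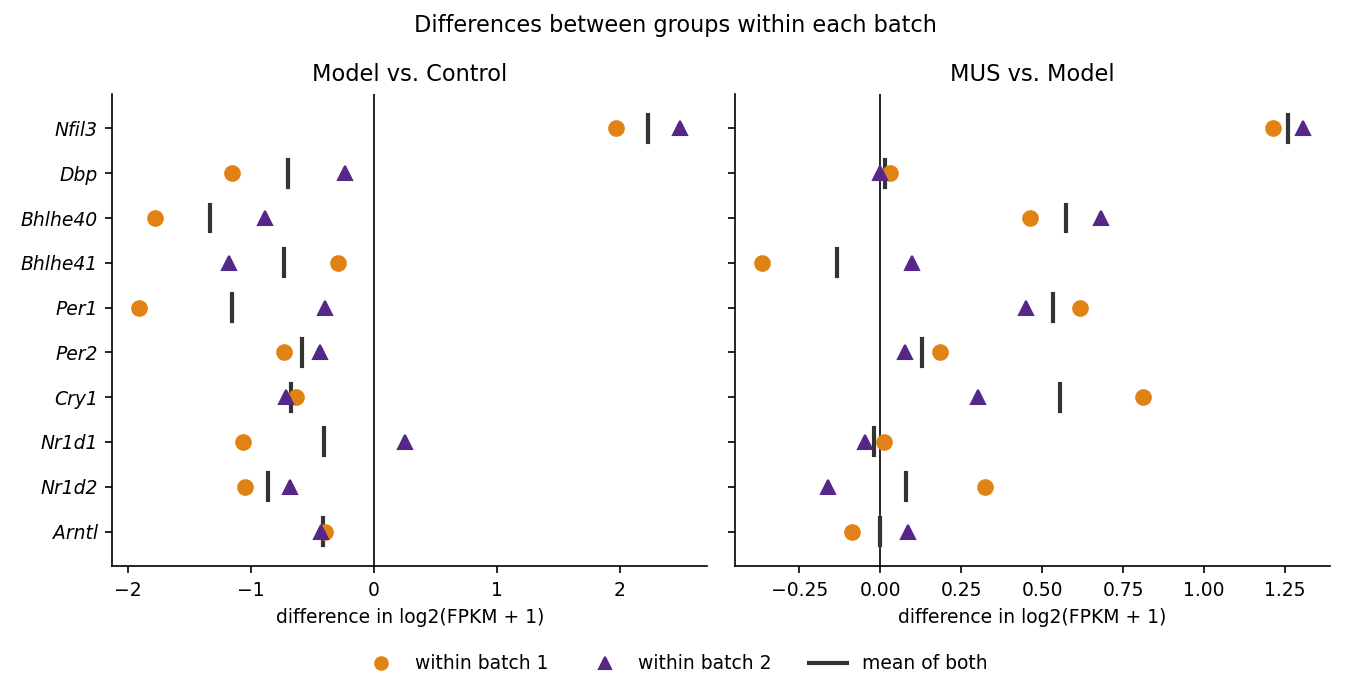
Difference in log2(FPKM + 1) of each of the 10 genes between Model and Control (left) and between MUS and Model (right), within batch 1 (circles) and within batch 2 (triangles), with the mean as a bar; the 2 panels have axes of different range. Nfil3 lies to the right of 0 in both batches of both panels (1.97 and 2.49, then 1.21 and 1.30), and Nr1d1 is the gene whose Model vs. Control differences have opposite signs in the 2 batches (-1.07 and 0.25). For Dbp, listed at 0 in Model, the plotted difference depends on the pseudocount and is no bound.

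Ranked by mean FPKM, the members changed places between groups. In Control the order was Bhlhe40 (78.3), Bhlhe41 (30.3), Nr1d2 (12.8), Nfil3 (5.85), Cry1 (4.86), Per1 (3.68), Arntl (1.25), Per2 (1.08), Nr1d1 (1.00) and Dbp (0.701). The libraries of Nfil3, Cry1 and Per1 overlapped their neighbours in that order, as did those of Arntl, Per2, Nr1d1 and Dbp. In Model, Nfil3 (29.9) and Bhlhe40 (28.6) led with overlapping libraries, ahead of Bhlhe41 (17.9) and Nr1d2 (6.62), whose libraries were apart from their neighbours. In MUS, Nfil3 (72.7) stood above Bhlhe40 (43.1) without overlap, followed by Bhlhe41 (16.0), Nr1d2 (7.07), Cry1 (4.40) and Per1 (2.05).

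Of the 10 members 6 passed the filter of a mean FPKM of at least 1 that 9794 genes passed, and Per2, Nr1d1, Dbp and Arntl did not. Since these genes were chosen with the differences known, the counts that follow describe them and support nothing. In Model vs. Control 1 of the 6 was an upregulated DEG, Nfil3, beside 9.5% of all genes tested (not without Model replicate 1 or without the filter, where 0 members were DEGs), and 0 of the 6 were downregulated DEGs, beside 5.56%. The libraries of Model and Control did not overlap for 6 of 6, namely Nfil3 higher, beside 32.6% of all genes, and Bhlhe40, Bhlhe41, Nr1d2, Cry1 and Per1 lower, beside 28.5%. The median log2 difference of the 6 was -0.80, beside 0.04 for all genes tested. In MUS vs. Model 0 of 9794 genes were DEGs (0%), with 825 at an unadjusted p under 0.05 and likewise 0 DEGs with limma-voom. The study did report DEGs in this comparison of the same libraries, with DESeq2 at the same thresholds. The 0 is thus a result of the fits used here, and the reason for the gap was not tested. With the batch as a block 4 genes were DEGs, of which 0 were members. The MUS libraries lay above the Model libraries for 3 of the 6, Bhlhe40, Nfil3 and Cry1, beside 21.2% of all genes, and below them for 0, beside 21%. The median of the 6 was 0.55, beside 0.01 for all genes.

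The scaling of the libraries bears on the level of every member. The library size that the deposited FPKM imply was 1.34 to 1.45 times the fragments on genes in Control and 0.909 to 0.998 times in Model and MUS. Scaling each library by its fragments on genes instead moved the median Model vs. Control difference of all genes tested from 0.04 to -0.40 and the split of DEGs from 930 higher and 545 lower to 646 higher and 1554 lower. Under that scaling Bhlhe40, Bhlhe41, Nr1d2, Cry1 and Per1 were downregulated DEGs, beside 15.9% of all genes, and Nfil3 was an upregulated DEG. Relative to the median gene of that scaling, Nfil3 was 2.15 higher in Model on the log2 scale, and the log2 differences of Bhlhe40, Per1, Nr1d2, Bhlhe41 and Cry1 were -1.47, -1.16, -0.97, -0.86 and -0.72. With quantile normalization the split was 723 higher and 733 lower, and Bhlhe40, Bhlhe41 and Nr1d2 were downregulated DEGs, beside 7.48%. The DEG calls of members under these scalings describe genes chosen with the differences known and support nothing. No member changed the sign of its Model vs. Control difference, averaged over the batches, under any of these scalings.

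**Figure D4:**
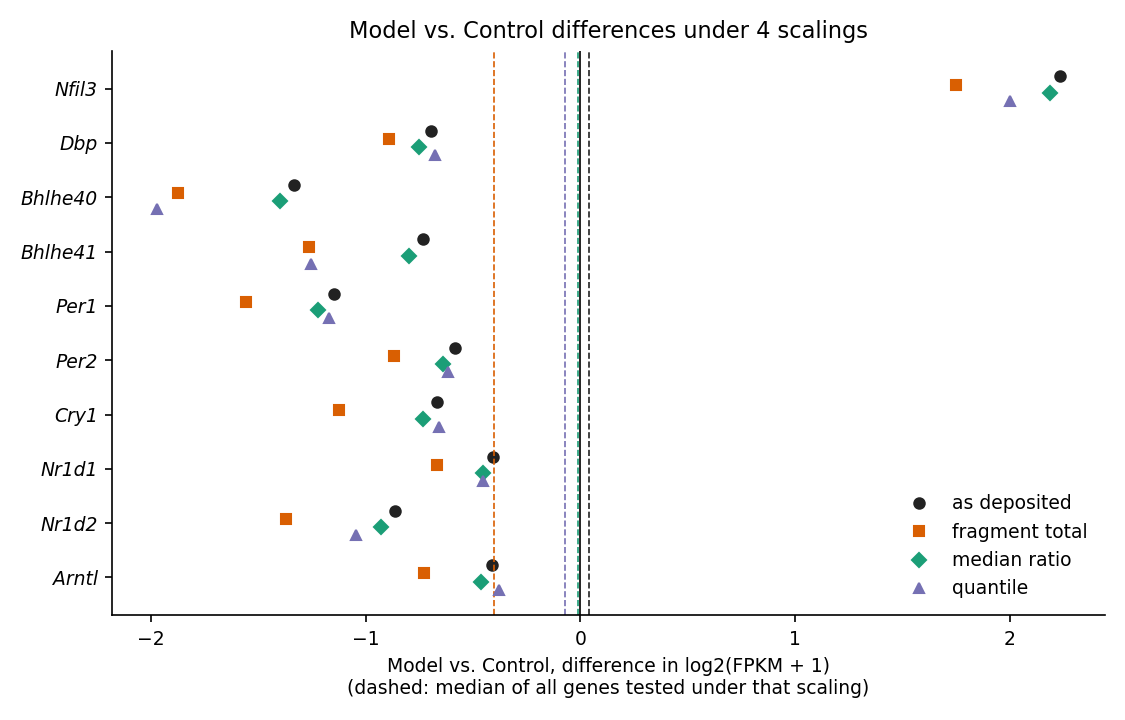
Model vs. Control difference in log2(FPKM + 1) of the 10 genes under the deposited scale, scaling by fragments on genes, median-ratio scaling and quantile normalization, with the median of all genes tested under each scaling as a dashed line of the same colour. Nfil3 lies to the right of 0 and the other 9 to the left under all 4, while the median of all genes sits at 0.04 as deposited and at -0.40 with fragments on genes.

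Among 30 other genes of the clock pathway, 20 passed the filter. They were listed for their role in the clock, but with earlier results of these data known. By group mean, Timeless was under 1 FPKM in Control, Rora in Model and MUS, and Tef in MUS, so these genes passed through their higher groups. In Model vs. Control 2 of the 20 rose, Noct and Timeless, and 2 of the 20 fell, Tef and Klf10 (limma, adjusted over all 9794 genes), beside 9.5% and 5.56% of all genes. The median log2 fold change of the 20 was -0.00, beside 0.04 for all genes, and 10 of the 20 were at an unadjusted p under 0.05, beside 3293 of all 9794. In MUS vs. Model 0 of the 20 passed, 0 were at an unadjusted p under 0.05 (1 with limma-voom), and the median was 0.06.

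Noct encodes nocturnin, a clock-controlled phosphatase of nicotinamide dinucleotides. It rose from 1.14 and 1.64 FPKM in Control to 14.99 and 12.6 in Model (log2 fold change 2.63, standard error 0.23, limma adjusted p = 0.00157) and was at 15.8 and 13.1 in MUS. Timeless, which in mammals is known mainly for its role at replication forks, rose from 0.150 and 0.172 FPKM to 3.22 and 4.94 (log2 fold change 2.11, standard error 0.24, adjusted p = 0.00325) and was at 3.18 and 3.50 in MUS. Both were DEGs in Model vs. Control under all 13 alternatives.

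Klf10, a Krüppel-like factor that feeds back on the clock, fell from 15.6 and 17.5 FPKM to 6.63 and 7.21 (log2 fold change -1.14, standard error 0.21, adjusted p = 0.0142). It was not a DEG without the filter (adjusted p = 0.061), without Model replicate 1 (0.059), without MUS replicate 1 (0.0541) and without MUS replicate 2 (0.0533).

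The ROR receptor Rora, which activates where REV-ERBs repress, was at 2.20 and 2.11 FPKM in Control, 0.499 and 0.849 in Model, and at 0.977 and 0.862 in MUS. Its log2 fold change of -0.92 in Model vs. Control (limma adjusted p = 0.0348) missed the fold threshold, which it passed with an adjusted p of at most 0.05 in 3 of the 13 alternatives, when libraries were scaled by fragments on genes (-1.29, adjusted p = 0.014), with limma-voom (-1.71, adjusted p = 0.00905) and without Model replicate 2 (-1.07, adjusted p = 0.0416). Ciart, a repressor of CLOCK and BMAL1, was at 0.948 and 0.251 FPKM in Control, 0.251 and 0.314 in the Model and 0.146 and 0 in the MUS libraries, and was not tested.

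**Figure D5:**
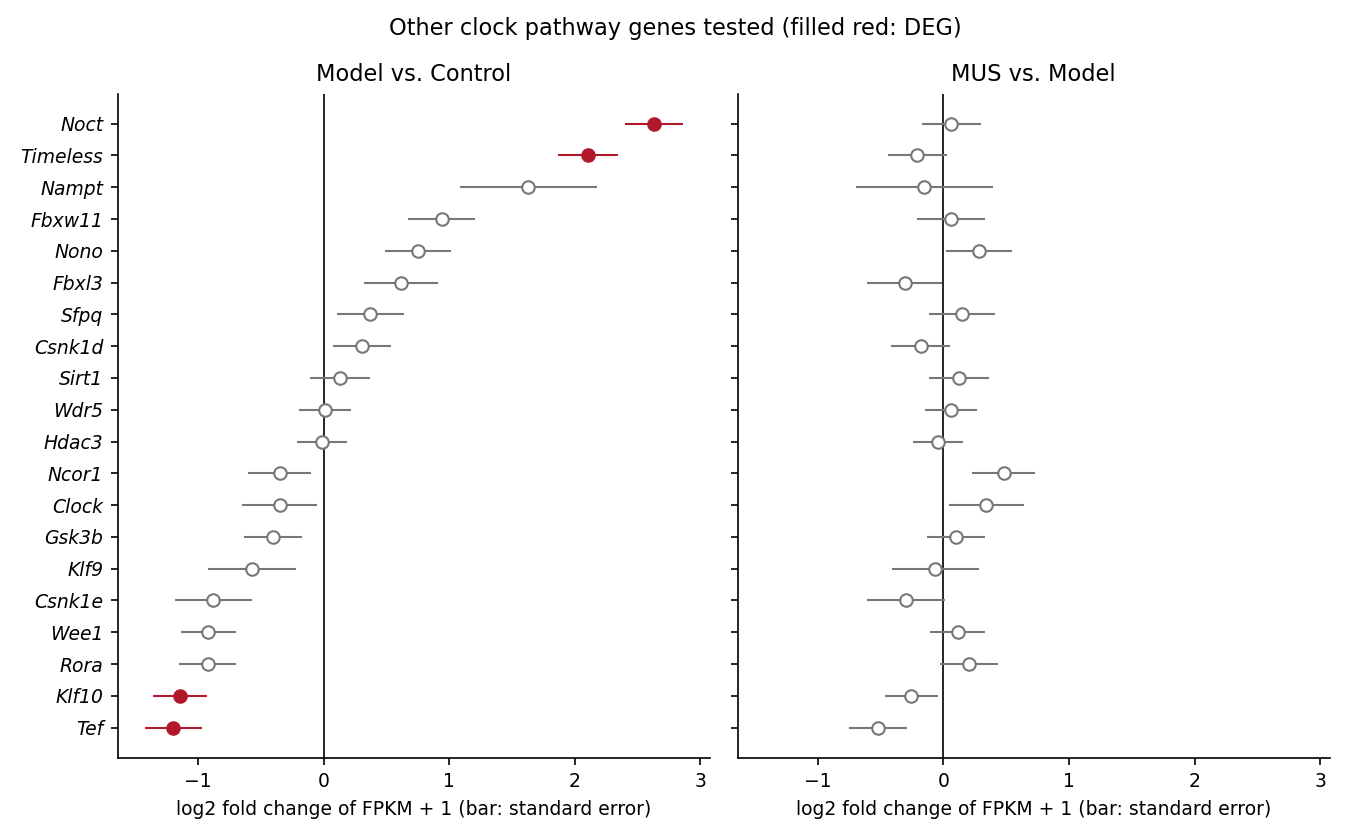
Log2 fold change of FPKM + 1 (points) and its limma standard error (bars) for the 20 other clock pathway genes tested, in Model vs. Control (left) and MUS vs. Model (right) on the same axis. Filled red points are DEGs: Noct (2.63) and Timeless (2.11) to the right and Klf10 (-1.14) and Tef (-1.20) to the left in Model vs. Control, and none in MUS vs. Model.

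Genes that NFIL3, DEC1 or REV-ERBs are reported to regulate were read as well, 5 of 6 in the same fit. Il12b, a target that NFIL3 is known to repress, rose from 0.0222 and 2.71 FPKM in Control to 109 and 100.1 in Model (log2 fold change 5.76, limma adjusted p = 0.00214) and was at 148 and 114 in MUS. Il10, which NFIL3 can activate and DEC1 repress, rose from 0.134 and 0.167 FPKM to 22.9 and 13.8 (log2 fold change 4.03, adjusted p = 0.00107) and was at 24.7 and 20.7 in MUS. The REV-ERB targets Il6 and Ccl2 rose with log2 fold changes of 8.82 (adjusted p = 0.000504) and 6.37 (adjusted p = 0.00201). By group mean, Il10 and Il6 were under 1 FPKM in Control, so these 2 genes passed the filter through their stimulated groups. Their Control levels rest on 4 and 5 fragments for Il10 and on 5 and 48 for Il6. Cx3cr1, which REV-ERBs repress, did not pass the filter and was at 3.06 and 1.66 FPKM in Control and at most 0.0629 in Model and MUS. Mmp9 was at 8.17 and 30.8 FPKM in Control and 7.65 and 12.1 in Model (log2 fold change -0.68, adjusted p = 0.418). In MUS vs. Model 0 of the 5 tested were DEGs.

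By Pearson correlation of log2(FPKM + 1) over the 6 libraries, the genes with the pattern most like that of Nfil3 were Gm36328 (r = 0.998), Zkscan6 (0.995), Nono (0.992), Kctd6 (0.991) and Kitl (0.987). These coefficients are a description over points that share 3 groups and 2 batches. Zkscan6 was at 2.82 and 1.81 FPKM in Control, 5.53 and 4.36 in Model, and at 7.09 and 6.60 in MUS. Nono, whose product binds PER proteins, was at 23.3 and 18.3 FPKM in Control, 35.4 and 35.4 in the Model and 45.3 and 41.2 in the MUS libraries. Its log2 fold changes of 0.75 and 0.28 did not pass the test (limma adjusted p = 0.0941 and 0.833). Like Nfil3, both genes were higher in both MUS libraries than in both Model libraries, and higher in both Model than in both Control libraries. That order largely follows from picking them by correlation with Nfil3 over these same libraries, so it is no separate result.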

How the data were processed

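RNA-seq was performed on mouse peritoneal macrophages of 3 groups with 2 libraries each (Control, Model and MUS), grouped by the sample labels. The authors deposited 1 table of FPKM per gene, which their methods say was quantified with RSEM, whereas the submitters' processing notes name HISAT2, featureCounts 1.5.0-p3 and GRCm39. Gene positions in the table match GENCODE M21 on GRCm38 (98.33% of 54495 shared identifiers, and 10 of 10 members). The authors called DEGs with DESeq2. Of the per-library columns, 0 had no sample.

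Fragments were recovered as FPKM times gene length over the step of 1 fragment. They ranged from 15526321 to 17135442 per library. Intervals and floors (3 fragments, or 0.131 to 0.213 FPKM for 1 kb of gene) cover counting error alone. Values were fitted with limma 3.58.1 in R 4.3.3 (lmFit, contrasts.fit and eBayes, trend included). The values entered as log2(FPKM + 1), genes averaging under 1 FPKM were left out (9794 stayed), and a single model held all 6 libraries. Tests were two-sided, with Benjamini-Hochberg adjustment over the genes tested. An exact permutation test of 2 against 2 libraries cannot give a p under 0.333. Standard errors of genes below the filter came from a fit without it. Alternatives were a pseudocount of 0.1, no filter, 3 other scalings, the replicate number as a block, limma-voom on the recovered fragments and leaving out each library. The fit was tested on simulated data. Tables were made with pandas 2.3.3 and NumPy 2.4.6 and figures with Matplotlib 3.10.9, under Python 3.11.15.

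The labels give the replicate number as the batch. Across genes, the gap between the 2 replicates correlated by 0.119 between Control and Model, 0.136 between Model and MUS and -0.0928 between Control and MUS. The pairing thus rests on the batch label.

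The members, the pathway list, the markers and the motifs were chosen with earlier results of these data known. The text names the 10 members, pathway genes that were DEGs plus 7 by name, 6 reported targets, and the 5 genes most correlated with Nfil3. The results of 2 further clock pathway genes are not reported here, and the counts leave them out.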

Additional observations from a re-analysis of the deposited data

How the results depend on the processing

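Averaged over the libraries, the Model vs. Control difference of every member kept its direction under every alternative in which it could be computed. Within the batches that of Nr1d1 had opposite signs (-1.07 and 0.25), so its direction is not settled by this. Leaving out a MUS library cannot move a Model vs. Control difference. In MUS vs. Model the averaged differences of Nfil3, Bhlhe40, Cry1, Per1 and Per2 kept their direction under every alternative in which they could be computed. The signs of Arntl, Bhlhe41, Nr1d1 and Nr1d2 in MUS vs. Model turned under at least 1 alternative, and the difference of Dbp was 0 without MUS replicate 1. Nfil3 was a DEG in Model vs. Control as deposited, but not without the filter and not without Model replicate 1. The members were chosen with the differences known, so their DEG calls are a description and support nothing. In Model vs. Control the 1475 DEGs became 260 without the filter, and between 692 (without Model replicate 1) and 2077 (without Control replicate 2) when 1 library was left out. The 4 other clock pathway genes called became 2 without the filter and 7 when scaled by fragments on genes, and 3 to 8 (without Control replicate 2) with 1 library left out. In MUS vs. Model the 0 DEGs became 1 with a pseudocount of 0.1, and 0 to 31 (without Model replicate 2) with 1 library left out. With the replicate block, pairing libraries by batch, 1582 DEGs were found in Model vs. Control and 4 in MUS vs. Model, where none of the 4 was a member or pathway gene. The block called Bhlhe40 and Nfil3 among the members, and it changed the calls of no pathway gene. Leaving out 1 library turned the MUS vs. Model log2 fold change of Timeless (-0.45 to 0.040) and Noct (-0.060 to 0.19), and the cause was not tested. Where 1 library was left in a group, it was assumed to vary like the other groups. Fragment counts under 100 in every Model and MUS library limit Per2, Nr1d1, Dbp and Arntl. Counts were also under 100 for Per1 in Model replicate 1 (43), Rora in Model replicate 1 (92) and Tef in MUS (72 and 89). In Control they were under 100 for Timeless (21 and 24), Il10 (4 and 5), Il6 (5 and 48) and, in replicate 1, Il12b (1).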
